A study of Mus musculus with 18 samples.

Results

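Brain region marker genes are here transcripts made mostly by cells of one part of the brain or of the pituitary. Their levels in RNA from brain tissue thus depend in part on how much of each part was sampled. The 29 genes described here are 10 markers of the cerebellum, 9 of the striatum and 10 of the hypothalamus and pituitary, and each was found by its symbol among the 52636 genes in the files. They were measured in 8-week-old male C57BL/6 mice, as 3 libraries from Pcgf6 knockout (KO) brain and 3 from wild-type (WT) brain. Pcgf6 encodes a subunit of a polycomb repressive complex. Liver and testis of both genotypes, 3 libraries each, make up the rest of the 18 libraries. The labels number the KO libraries 4 to 6 and the WT libraries 1 to 3 within each tissue, and these numbers serve as names. How the allele was made, and which parts of the brain were taken, is not given in the sources used here. The samples are not tied to separate animals in the labels, so p-values measure the spread between these samples only.

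The cerebellum holds small, densely packed granule cells, which are the most numerous neurons of the brain. Its large Purkinje cells carry the output of the cerebellar cortex. The striatum consists mainly of spiny projection neurons, which receive dopamine and are divided into a direct and an indirect output pathway. The hypothalamus contains small clusters of neurons that each make a signature neuropeptide. The pituitary gland, which makes growth hormone and prolactin, lies below the hypothalamus and is joined to it by a stalk.

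Depth in brain was 20759022 to 23183662 reads per library, and the FPKM values given for brain (fragments per kilobase of a gene, scaled by each library's size) are comparable between its libraries. Pearson correlations between brain libraries were 0.983 to 0.990, and no pair of libraries held identical values. Pcgf6 measured 3.30, 4.20 and 4.42 FPKM in KO 4, KO 5 and KO 6, against 4.58, 5.18 and 5.29 FPKM in WT 1, WT 2 and WT 3. Its brain groups did not overlap but lay close together, and the gap was wider in liver, at 1.44 to 2.66 FPKM in KO and 4.08 to 5.66 FPKM in WT, and in testis, at 9.58 to 10.6 FPKM in KO and 19.9 to 22.3 FPKM in WT. The 3 libraries KO 5, KO 6 and WT 3 held more reads of liver and testis genes than the others. Alb, the liver albumin gene, had 24, 270 and 345 reads in KO 4, KO 5 and KO 6, against 1, 3 and 611 reads in WT 1, WT 2 and WT 3. Prm1, the sperm protamine gene, had 6, 61 and 21 reads in the KO libraries in the same order, against 7, 6 and 34 reads in the WT libraries. In FPKM that was at most 0.0629% of its testis mean, a rough share because FPKM scaling differs between the tissues. No member of the neuron and astrocyte lists was at 0 in any brain library. Neither were Alb and Prm1, so a value above 0 does not test the brain label.

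Promoters are printed for 6 members on which the results turn. Gabra6, Fat2 and Cbln3, genes of cerebellar granule cells, were all lowest in 1 WT library, Oxt and Avp were low in the same KO library, and Prl was read mainly in that library. Each sequence is the 250 bases before the gene's RefSeq start (GRCm38.p6), read 5′ to 3′ on the gene's strand, with motif matches in capitals.
Gabra6, chr11:42321073-42321322, minus strand: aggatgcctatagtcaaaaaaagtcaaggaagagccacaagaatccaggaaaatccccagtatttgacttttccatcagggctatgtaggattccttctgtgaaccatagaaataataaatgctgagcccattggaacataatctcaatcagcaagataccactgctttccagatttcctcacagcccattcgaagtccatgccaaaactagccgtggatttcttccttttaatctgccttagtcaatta
Fat2, chr11:55312258-55312507, minus strand: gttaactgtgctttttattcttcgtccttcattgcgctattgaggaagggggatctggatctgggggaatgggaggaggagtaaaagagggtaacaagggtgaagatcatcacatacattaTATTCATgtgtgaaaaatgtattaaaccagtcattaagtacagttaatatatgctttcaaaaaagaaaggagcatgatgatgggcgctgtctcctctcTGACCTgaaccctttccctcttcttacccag
Cbln3, chr14:55884257-55884506, minus strand: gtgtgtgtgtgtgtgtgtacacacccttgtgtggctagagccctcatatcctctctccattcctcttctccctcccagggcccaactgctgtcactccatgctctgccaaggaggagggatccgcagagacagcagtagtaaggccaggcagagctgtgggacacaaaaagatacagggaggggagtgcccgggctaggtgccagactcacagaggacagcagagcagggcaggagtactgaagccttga
Oxt, chr2:130575919-130576168, plus strand: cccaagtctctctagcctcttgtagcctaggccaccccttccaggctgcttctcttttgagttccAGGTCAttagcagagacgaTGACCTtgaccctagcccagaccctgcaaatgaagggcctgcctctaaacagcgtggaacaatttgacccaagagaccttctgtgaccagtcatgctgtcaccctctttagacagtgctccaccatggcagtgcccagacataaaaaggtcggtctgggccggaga
Avp, chr2:130582589-130582838, minus strand: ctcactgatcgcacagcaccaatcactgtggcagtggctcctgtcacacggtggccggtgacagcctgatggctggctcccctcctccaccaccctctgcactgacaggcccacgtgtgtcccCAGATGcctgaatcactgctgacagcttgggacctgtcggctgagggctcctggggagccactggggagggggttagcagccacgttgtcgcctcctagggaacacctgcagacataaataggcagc
Prl, chr13:27057320-27057569, plus strand: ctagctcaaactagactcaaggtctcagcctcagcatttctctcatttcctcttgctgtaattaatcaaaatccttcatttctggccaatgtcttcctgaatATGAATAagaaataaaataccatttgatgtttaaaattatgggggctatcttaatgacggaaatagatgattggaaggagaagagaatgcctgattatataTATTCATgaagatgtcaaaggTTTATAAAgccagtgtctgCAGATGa

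The capitals mark 4 short motifs searched on both strands of these 250 bases. They are TATNCAT, a core of sites for the pituitary factor POU1F1, found in 7.92% of 32851 promoters in the table; CAGATG, an E-box of neuronal bHLH factors, in 14.4%; AGGTCA, a core of nuclear receptor sites, in 14.0%; and TATAAA, the TATA box, in 12.4%. The table held a promoter for 21 of the 29 members, of which 2 held TATNCAT (Fat2 and Prl), 8 held CAGATG, 6 held AGGTCA and 7 held TATAAA. Prl matched TATNCAT at bases -148 to -142 and again at -47 to -41, counted back from the start, and its TATAAA matches on the opposite strands overlap at -26 to -19. Oxt held AGGTCA on opposite strands at -185 to -180 and -166 to -161. No match to the 4 motifs was found in these 250 bases of Gabra6 or Cbln3. The Fat2 start in the RefSeq table lies inside the longer gene span of the mm10 annotation (chromosome 11, 55250609 to 55336564). A match is a run of letters and was not linked to any level measured here.

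**Figure D1:**
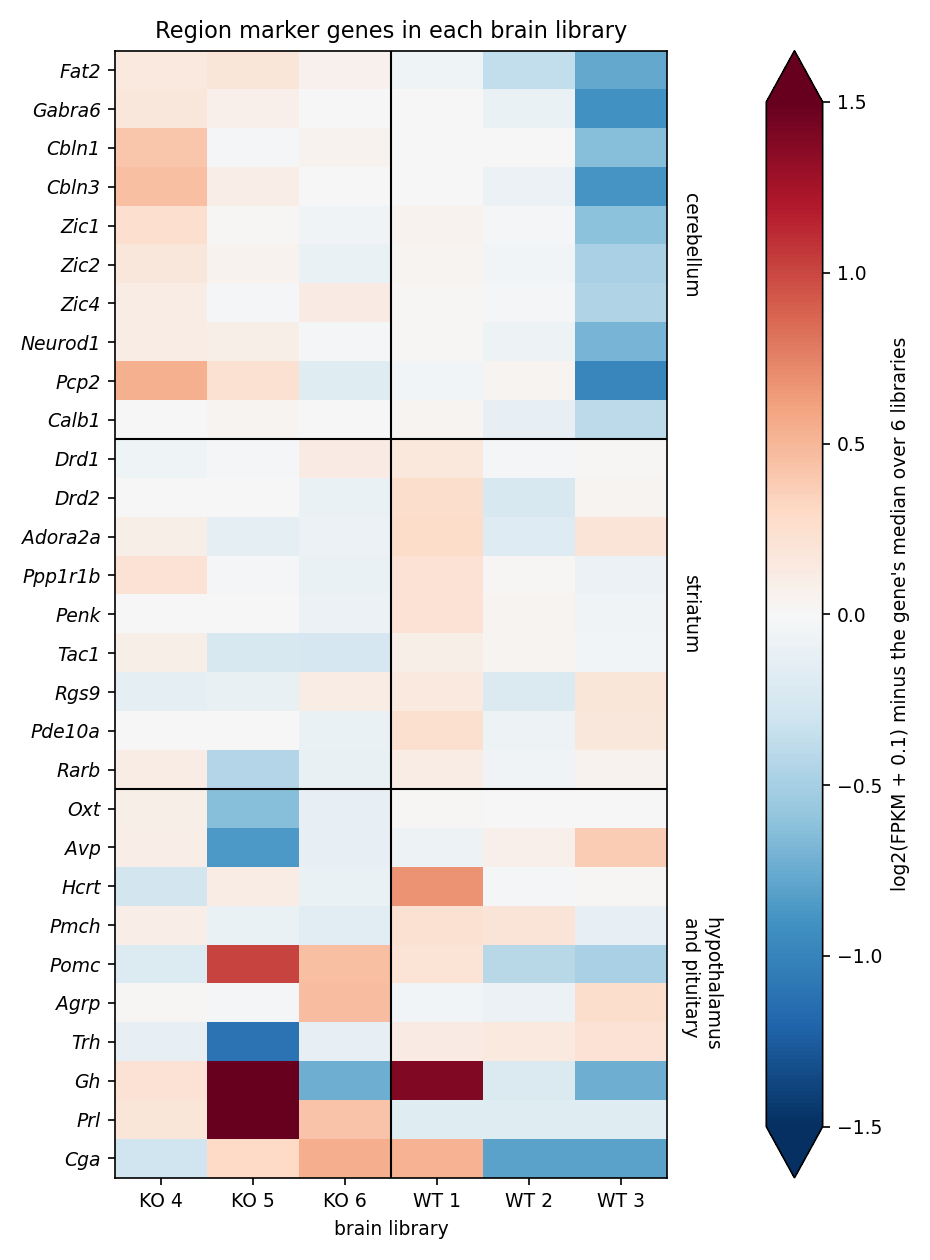
Heat map of the 29 marker genes (rows) in the 6 brain libraries (columns, KO left of WT), coloured by log2(FPKM + 0.1) minus the gene's median over the 6 libraries. All 10 cerebellar genes are lowest in WT 3, Oxt, Avp and Trh are lowest in KO 5, and Gh and Prl are highest in KO 5.

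None of the 29 genes was called different between KO and WT brain, and the clearest pattern among them was a difference between single libraries. Of the 29, 26 had enough reads for the test, which needed a minimum of 10 reads in 3 or more brain libraries; Gh, Prl and Cga did not. Limma called 0 of the 26 at an adjusted p under 0.05, and 2 of them, Fat2 and Trh, had an unadjusted p under 0.05. Limma voom called none of the 26 either. Over all genes tested in brain, 15 of 17922 were called (0.0837%), and 800 had an unadjusted p under 0.05 (4.46%).

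Cerebellar genes were low in 1 WT library. All 10 had their lowest value in WT 3, where 19.7% of all tested genes had theirs. WT 3 held a median of 62.5% of each gene's median over the other libraries, with a range from 48.9% for Pcp2 to 75.3% for Calb1. At the other end KO 4 was highest for 7 of the 10 genes, and for 22.2% of all tested genes. In bulk tissue, fewer cells of a type and less RNA per cell cannot be told apart.

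Fat2, a giant cadherin of granule cell axons, measured 9.49, 9.71 and 8.92 FPKM in KO 4, KO 5 and KO 6, against 8.16, 6.61 and 4.97 FPKM in WT 1, WT 2 and WT 3. It averaged 9.37 ± 0.406 FPKM in KO and 6.58 ± 1.60 FPKM in WT brain (SD, n = 3 each). Its groups did not overlap, the WT values spread widely, and WT 3 was lowest. The log2 fold change was 0.53 ± 0.16 (SE), with an unadjusted limma p of 0.0110 and an adjusted p of 0.888. Without WT 3 it was 0.35, and over 16 alternatives the lowest adjusted p was 0.482.

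Gabra6, the GABA-A receptor subunit that marks mature granule cells, measured 42.0, 39.2 and 37.4 FPKM in KO 4, KO 5 and KO 6, against 37.2, 34.9 and 19.9 FPKM in WT 1, WT 2 and WT 3. Here too the groups did not overlap, but KO 6 and WT 1 lay side by side and WT 3 stood alone. Its log2 fold change was 0.42 ± 0.21 (SE, limma adjusted p = 1.00) with all libraries and 0.13 without WT 3. Fat2 and Gabra6 were the 2 of 10 cerebellar genes whose lowest KO library lay above the highest WT library, a pattern shown by 4.99% of all tested genes.

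Cbln3, which encodes a cerebellin secreted by granule cells and bound to its partner Cbln1, measured 56.5, 44.1 and 40.9 FPKM in the KO libraries 4 to 6, against 41.5, 38.8 and 22.2 FPKM in the WT libraries 1 to 3. Cbln1, the synapse organiser at granule to Purkinje cell contacts, measured 73.0, 53.7 and 56.5 FPKM in KO against 54.8, 54.4 and 35.1 FPKM in WT. Both were highest in KO 4 and lowest in WT 3, with 4 libraries close together in between. Their log2 fold changes were 0.50 ± 0.24 and 0.36 ± 0.19 (SE), each with a limma adjusted p of 1.00.

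Neurod1, a bHLH factor of granule neurons, measured 22.6, 22.3 and 20.7 FPKM in KO against 21.2, 19.8 and 12.9 FPKM in WT. The zinc finger factor Zic1 measured 42.7, 36.3 and 34.5 FPKM in KO against 37.2, 35.3 and 23.4 FPKM in WT. In both, the groups overlapped and WT 3 was the only library far from the rest. Zic2 ranged from 14.5 to 17.5 FPKM in KO and from 11.0 to 16.0 FPKM in WT, and Zic4 from 1.13 to 1.26 FPKM in KO and from 0.808 to 1.16 FPKM in WT. Zic1 and Zic4 overlap on opposite strands of chromosome 9, so reads of the overlap cannot be told apart without strand.

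The Purkinje cell genes followed the same order at the low end. Pcp2, a Purkinje cell modulator of G protein signalling, measured 41.2, 33.2 and 25.1 FPKM in KO against 27.6, 29.2 and 14.3 FPKM in WT. It had the widest range of the cerebellar genes, with KO 4 at 2.89 times WT 3, and it overlaps Pet100 on the opposite strand. Calb1, a calcium buffer abundant in Purkinje cells and present in neurons of other regions too, measured 38.2, 39.5 and 38.8 FPKM in KO against 39.5, 35.3 and 29.2 FPKM in WT. Its range was the narrowest, with the highest library at 1.35 times the lowest.

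All 10 cerebellar genes had positive log2 fold changes, from 0.17 for Calb1 to 0.53 for Fat2, with a median of 0.34. Over all tested genes the median was 0.01, and 53.3% were positive. Without WT 3 the 10 stayed positive, with a median of 0.11. The WT libraries varied more than the KO libraries for these genes. The median SD of log2 values was 0.11 in KO and 0.37 in WT, against 0.12 in KO and 0.11 in WT over all tested genes.

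**Figure D2:**
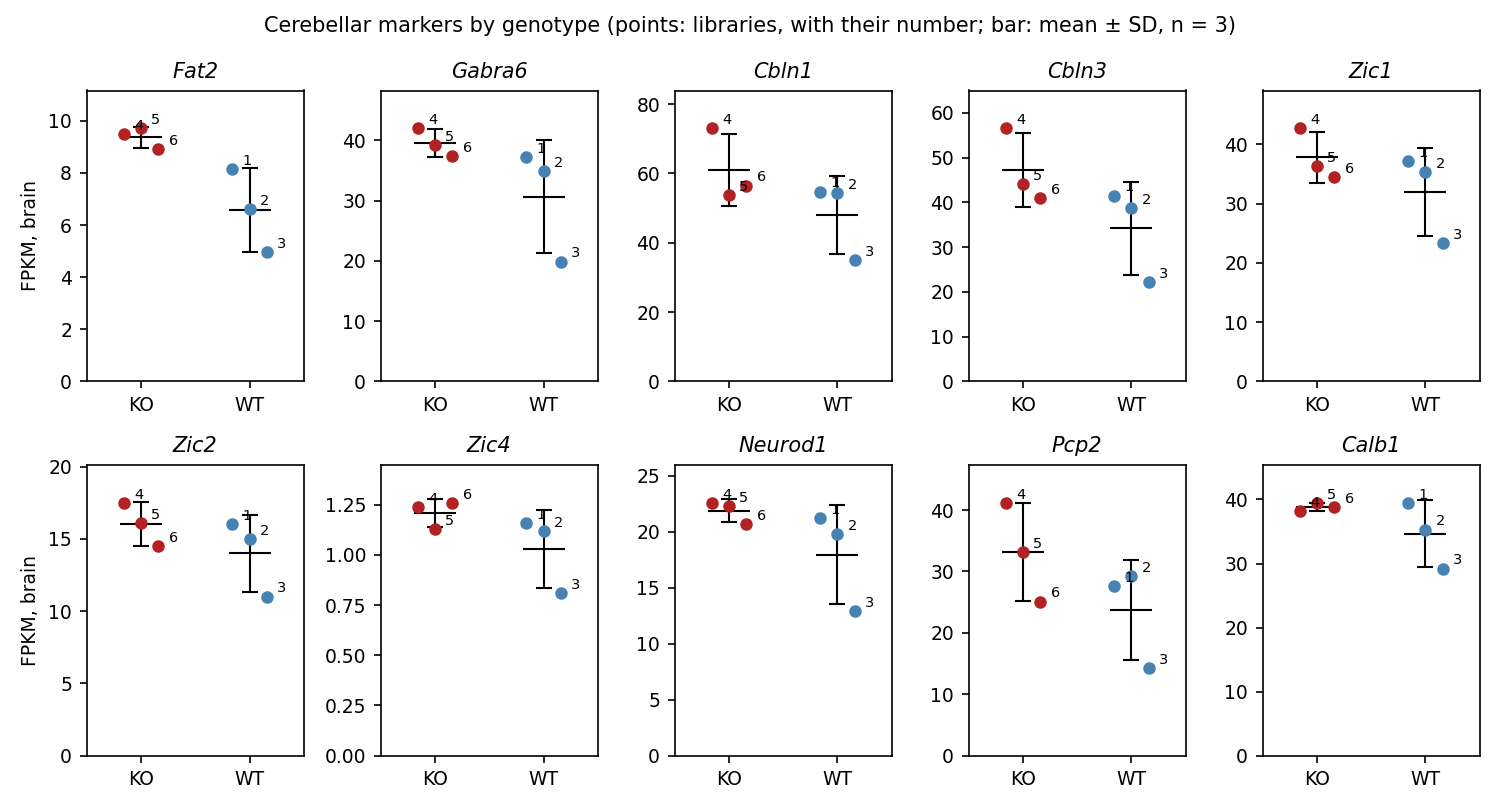
FPKM (y axis, from 0) of the 10 cerebellar genes in KO and WT brain libraries (points, labelled by library number), with mean and SD of 3 libraries as bars. WT 3 is the lowest point in every panel, and KO and WT points overlap in 8 of the 10 panels.

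Further cerebellar genes showed a like order. Of 16 on a second list, 14 were higher in KO, with a median log2 fold change of 0.32, none was called and 13 were lowest in WT 3. Gdf10, a growth factor of Bergmann glia, measured 13.4, 14.2 and 10.5 FPKM in KO against 10.5, 9.64 and 7.73 FPKM in WT (log2 fold change 0.45 ± 0.14, SE, limma adjusted p = 0.929). Ppp1r17, a Purkinje cell phosphatase inhibitor, measured 15.2, 15.9 and 13.8 FPKM in KO against 15.2, 12.9 and 7.32 FPKM in WT (0.40 ± 0.24, adjusted p = 1.00). On that list 5 genes had all KO libraries above all WT libraries, against 4.99% of all tested genes. The 5 other genes with a mean of at least 5 FPKM whose levels ran most like the cerebellar members over the 6 libraries were Homer3, Zfp219, Trpm3, Cnpy1 and Atp2b3, with Pearson r from 0.989 to 0.995 among 7281 candidates. Homer3, a scaffold protein of Purkinje cell synapses, measured 14.0, 12.8 and 11.1 FPKM in KO against 11.9, 11.0 and 5.98 FPKM in WT.

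The KO and WT groups of the striatal genes overlapped throughout. Their median SD of log2 values was 0.12 in KO and 0.16 in WT, against 0.12 in KO and 0.11 in WT over all tested genes. Of the 9, 6 were highest in WT 1, where 15.8% of all tested genes had their highest value. WT 1 held a median of 118% of the other libraries' median, with a range from 109% to 129%. The 9 log2 fold changes were all negative, from -0.18 for Rarb to -0.01 for Ppp1r1b, with a median of -0.10. Without WT 1 the median was -0.02 and 3 of the 9 were positive. Each of the 9 had an adjusted p of 1.00 in limma, and none had an unadjusted p under 0.05.

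The receptors of the output pathways come first. Drd1, the dopamine receptor of the direct pathway, measured 7.02, 7.23 and 8.01 FPKM in KO 4, KO 5 and KO 6, against 8.19, 7.25 and 7.46 FPKM in WT 1, WT 2 and WT 3. Drd2, the dopamine receptor of the indirect pathway, measured 9.41, 9.41 and 8.78 FPKM in KO against 11.3, 7.94 and 9.70 FPKM in WT. Adora2a, the adenosine receptor of the indirect pathway, measured 11.6, 9.94 and 10.3 FPKM in KO against 13.3, 9.52 and 12.5 FPKM in WT. Both indirect pathway receptors were highest in WT 1 and lowest in WT 2, so the widest contrast lay within WT.

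The peptide precursors are Penk, for enkephalin in the indirect pathway, and Tac1, for substance P in the direct pathway. Penk measured 77.8, 77.2 and 72.7 FPKM in KO against 90.3, 79.6 and 74.8 FPKM in WT. Tac1 measured 11.4, 9.05 and 8.96 FPKM in KO against 11.4, 11.0 and 10.4 FPKM in WT. For Tac1, KO 5 and KO 6 lay below the WT libraries and KO 4 was level with WT 1. Its log2 fold change was -0.16 ± 0.10 (SE, limma adjusted p = 1.00).

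The groups of the signalling and transcription genes overlapped too. Ppp1r1b, the dopamine-regulated phosphatase inhibitor of spiny neurons, had the highest FPKM of all 29 genes, at 141, 120 and 113 FPKM in KO against 141, 122 and 114 FPKM in WT. The values of the KO and WT libraries ran side by side, at a log2 fold change of -0.01 ± 0.11 (SE). Pde10a, the cyclic nucleotide phosphodiesterase of spiny neurons, ranged from 14.5 to 15.6 FPKM in KO and from 14.7 to 18.4 FPKM in WT. Rgs9, a regulator of G protein signalling rich in striatum, ranged from 6.83 to 8.09 FPKM in KO and from 6.42 to 8.53 FPKM in WT. Rarb, a retinoic acid receptor, measured 1.77, 1.18 and 1.5 FPKM in KO against 1.77, 1.57 and 1.70 FPKM in WT, with KO 5 lowest; it overlaps Top2b on the opposite strand, which had 2383 to 2752 reads in KO and 2515 to 2894 reads in WT.

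On a second striatal list, 17 of 18 tested genes were lower in KO, with a median log2 fold change of -0.09, and none was called. Of these 18 genes 10 were highest in WT 1, as were most of the striatal members. Foxp2, a forkhead factor, ranged from 1.02 to 1.10 FPKM in KO and from 1.06 to 1.28 FPKM in WT (-0.12 ± 0.12, SE, limma adjusted p = 1.00). The genes most like the striatal members over the 6 libraries were Lmo3, Psmd11, Chd8, Pi4ka and Ap3m2, with Pearson r from 0.967 to 0.984.

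Some of the hypothalamic and pituitary genes differed mainly in 1 KO library. KO 5 was lowest for 3 of the 7 tested genes, Oxt, Avp and Trh, and was lowest for 13.1% of all tested genes. In the same library Pomc was at 237% of the other libraries' median, and nearly all Gh and Prl reads were found there. Of the 7 tested genes, 5 were lower and 2 higher in KO, with a median log2 fold change of -0.23. Without KO 5 and WT 3, a choice made after the values were seen, it was -0.02.

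Oxt and Avp encode the neurohypophysial hormones oxytocin and vasopressin and are neighbours on chromosome 2. Oxt measured 19.0, 11.4 and 16.4 FPKM in KO 4, KO 5 and KO 6, against 18.0, 17.7 and 17.9 FPKM in WT 1, WT 2 and WT 3. Avp measured 23.5, 12 and 20.1 FPKM in KO against 20.7, 23.1 and 28.4 FPKM in WT. KO 5 stood below all other libraries for both, at 63.6% of the others' median for Oxt and 51.8% for Avp, while KO 4 and KO 6 lay in or near the WT range. Their log2 fold changes were -0.23 ± 0.17 and -0.42 ± 0.24 (SE, limma adjusted p = 1.00 each), and without KO 5 they were -0.02 and -0.13.

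Trh, the precursor of thyrotropin-releasing hormone, was the only hypothalamic member whose groups did not overlap. It measured 5.32, 2.63 and 5.34 FPKM in KO against 6.30, 6.42 and 6.75 FPKM in WT, or 4.43 ± 1.56 FPKM in KO and 6.49 ± 0.233 FPKM in WT (SD, n = 3 each). KO 5 was the lowest by far, and the other KO libraries were also below every WT library. All KO libraries lay below all WT libraries for 4.09% of all tested genes. The log2 fold change of Trh was -0.61 ± 0.25 (SE), with an unadjusted limma p of 0.0417 and an adjusted p of 1.00. Without KO 5 it was -0.28.

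The lateral hypothalamic peptides were not lowest in KO 5. Hcrt, the hypocretin precursor of wake-promoting neurons, measured 6.31, 8.29 and 7.14 FPKM in KO against 12.3, 7.53 and 7.77 FPKM in WT. Only WT 1 stood apart, at 163% of the others' median. Pmch, the precursor of melanin-concentrating hormone, ranged from 7.14 to 8.60 FPKM in KO and from 7.33 to 9.43 FPKM in WT. For Pmch, KO 5 was at 86.7% of the others' median and KO 6 was lower, at 83.0%. Without WT 1 the log2 fold change of Hcrt was -0.09, against -0.31 ± 0.19 (SE, limma adjusted p = 1.00) with all libraries.

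Pomc and Agrp mark opposing feeding neurons of the arcuate nucleus, and Pomc is also the hormone precursor of pituitary corticotropes and melanotropes. Pomc measured 2.79, 6.64 and 4.48 FPKM in KO against 3.77, 2.40 and 2.28 FPKM in WT. KO 5 was highest, KO 6 was also above every WT library, and KO 4 lay within the WT range. Its log2 fold change was 0.65 ± 0.31 (SE, limma adjusted p = 1.00), and 0.36 without KO 5. Agrp measured 0.593, 0.580 and 0.843 FPKM in KO against 0.569, 0.546 and 0.723 FPKM in WT, with KO 6 and not KO 5 highest. The annotated span of Agrp overlaps Ctcf and Ripor1 on the opposite strand, so its reads are uncertain.

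Gh, the growth hormone gene of pituitary somatotropes, was read almost only in KO 5. It had 2, 347 and 0 reads in KO 4, KO 5 and KO 6, against 8, 1 and 0 reads in WT 1, WT 2 and WT 3, which is 14.8 FPKM in KO 5 and at most 0.334 FPKM in any other library. Prl, the prolactin gene of lactotropes, had 1, 36 and 2 reads in KO, against 0 reads in each WT library. Both hormones were thus near 0 outside KO 5. A count of 0 allows up to 0.127 FPKM of Gh in WT 3 and up to 0.0785 FPKM of Prl in WT 2, for counting error only. Gh had no read in any liver library and 9 reads over the 6 testis libraries.

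Cga, the shared alpha subunit of pituitary glycoprotein hormones, was near 0 in all libraries, with 1, 3 and 4 reads in KO against 4, 0 and 0 reads in WT. Of 10 further pituitary genes, only 3 had enough reads for the test. The summed FPKM of the 10 was 1.62, 1.64 and 1.54 in KO against 1.71, 0.964 and 1.29 in WT. Pou1f1, the lineage factor of somatotropes and lactotropes, had 0, 1 and 2 reads in KO and none in WT. On that list Lhb and Tshb, subunits of gonadotropin and thyrotropin, had log2 fold changes of 0.37 and 0.11, and limma called neither. Of the 3 tested genes on it, only Tshb was highest in KO 5, at 0.533 FPKM against 0.267 to 0.498 FPKM in the other libraries. The part of pituitary tissue in the values of KO 5 was not tested.

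**Figure D3:**
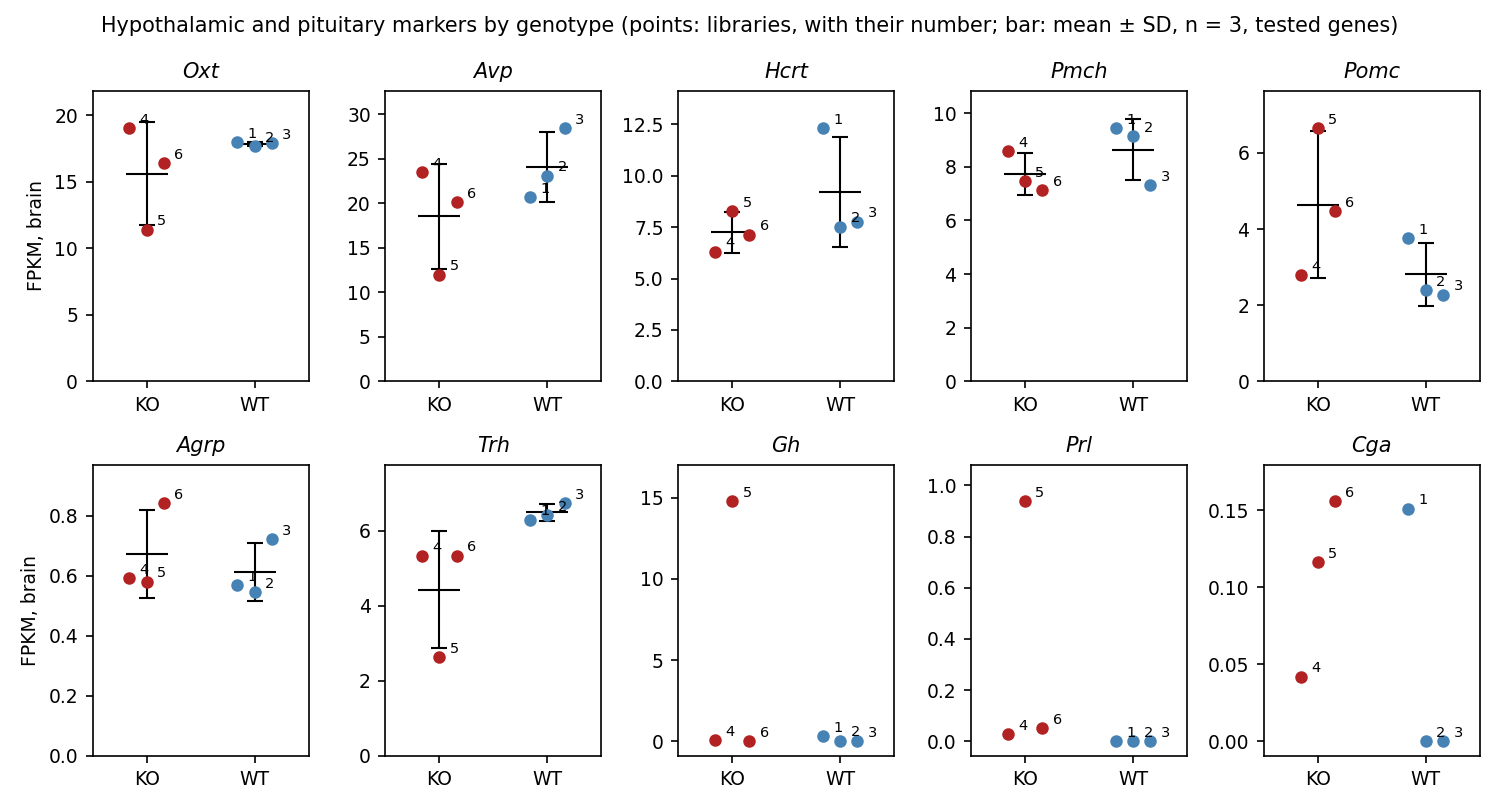
FPKM (y axis) of the 10 hypothalamic and pituitary genes in KO and WT brain libraries (points, labelled by library number), with mean and SD of 3 libraries as bars for the 7 tested genes. KO 5 is the lowest point for Oxt, Avp and Trh and the highest for Pomc, Gh and Prl.

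Of 13 further hypothalamic genes tested, 10 were lower in KO, with a median log2 fold change of -0.03, none was called, and 6 were lowest in KO 5. Gal, the galanin precursor, measured 2.59, 2.27 and 2.87 FPKM in KO against 2.73, 3.26 and 2.47 FPKM in WT, and Baiap3 measured 9.80, 9.18 and 11.6 FPKM in KO against 10.4, 9.27 and 12 FPKM in WT. For both, the differences within a genotype were as large as those between genotypes. The genes most like the 7 tested members were Ets2, Dhx32, Pak3, Hdgfl3 and Eif1a, with Pearson r from 0.948 to 0.982, all within a narrow range of levels.

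**Figure D4:**
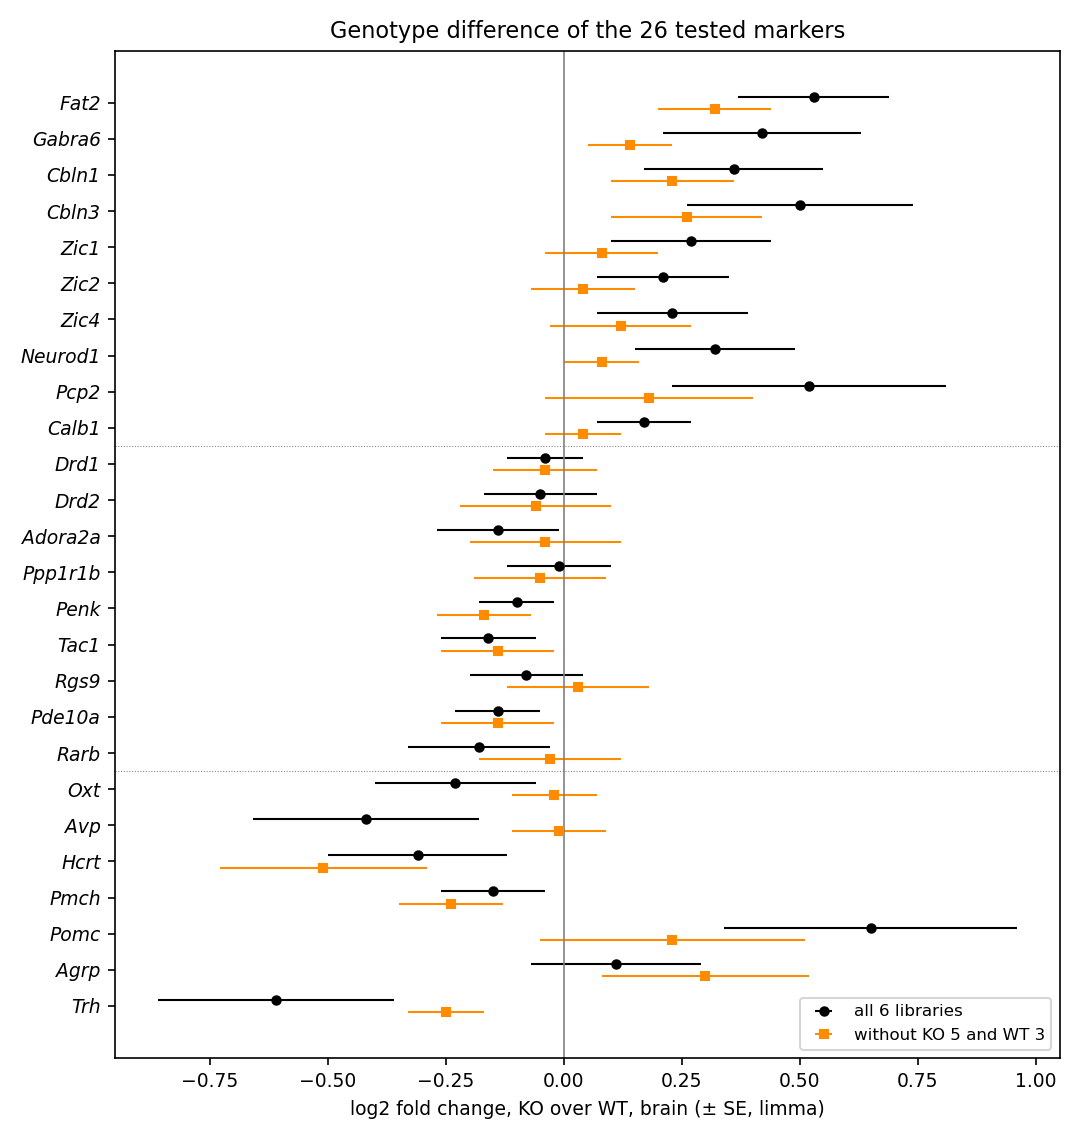
Log2 fold change, KO over WT brain, with SE (limma) for the 26 tested genes, with all 6 libraries (black circles) and without KO 5 and WT 3 (orange squares). The cerebellar median is 0.34 with all libraries and 0.13 without both, and the value of Trh is -0.61 with all libraries and -0.25 without both.

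Markers of other regions differed between the same libraries. Olfactory bulb genes were low in KO 5 and high in WT 3, with summed FPKM of 9.11, 3.72 and 5.93 in KO against 9.38, 13.2 and 18.9 in WT over 5 genes, none at 0. Omp, the olfactory marker protein, measured 0.728, 0.120 and 0.398 FPKM in KO against 0.806, 1.34 and 3.72 FPKM in WT (log2 fold change -1.93 ± 0.61, SE, limma adjusted p = 0.920). WT 3, lowest for the cerebellar genes, was thus the highest library for 4 of 5 olfactory bulb genes, and KO 5 was the lowest for 4 of 5. Doc2g, of the bulb's output neurons, measured 2.63, 0.789 and 1.05 FPKM in KO against 2.15, 3.92 and 4.65 FPKM in WT (-1.31 ± 0.44, adjusted p = 0.965). All 5 olfactory bulb genes were lower in KO, with a median log2 fold change of -1.31 and an unadjusted limma p under 0.05 for 4 of them, and none was called.

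Hindbrain and spinal cord genes were lowest in WT 1. All 9 tested were higher in KO, with a median log2 fold change of 0.85; none was called and none had an unadjusted limma p under 0.05. Of the 15 genes on the list, 12 were at 0 in WT 1, and the summed FPKM was 10.9, 7.32 and 11.3 in KO against 1.31, 13.0 and 2.85 in WT. Slc6a5, the glycine transporter of brainstem and cord neurons, measured 6.78, 5.50 and 5.00 FPKM in KO against 1.24, 6.77 and 2.05 FPKM in WT (1.10 ± 0.52, SE, limma adjusted p = 1.00). WT 1 and WT 3 were low for it, and WT 2 was level with KO 4. WT 1 was the lowest library for 8 of the 9 tested hindbrain genes, was tied at 0 for the other, and was the highest for 6 of 9 striatal members. The part of these regional differences in the values of the 29 genes was not tested.

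Genes of the midbrain monoamine neurons were 2 higher and 6 lower in KO of 8 tested, with none called. Th, the rate-limiting enzyme of dopamine synthesis, measured 5.33, 4.03 and 4.92 FPKM in KO against 6.38, 7.18 and 7.76 FPKM in WT, without overlap. Its log2 fold change was -0.57 ± 0.12 (SE), with an unadjusted limma p of 0.00145 and an adjusted p of 0.510. KO 5 was lowest and WT 3 highest for it. Olfactory bulb neurons also express Th, and their part in its values was not tested. Slc6a4, the serotonin transporter, ranged from 0.941 to 1.18 FPKM in KO and from 1.19 to 1.31 FPKM in WT (-0.23 ± 0.12, adjusted p = 1.00). Th and Slc6a4 were the 2 of 8 with all KO libraries below all WT libraries, an order shown by 4.09% of all tested genes.

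Further lists for regions and cells that the 29 genes do not cover had median log2 fold changes from -0.06 to 0.22. Cortex and hippocampus genes were 4 higher and 8 lower in KO of 12 tested, with a median log2 fold change of -0.06, and thalamus genes 5 higher and 3 lower of 8, with a median of 0.03. With a mean of at least 1 FPKM, their largest changes were in Spink8 (0.31 ± 0.28) and C1ql2 (-0.18 ± 0.10) for cortex and hippocampus, and in Tnnt1 (0.09 ± 0.19) and Synpo2 (-0.09 ± 0.15) for thalamus (SE). All 7 oligodendrocyte genes were higher in KO, with a median of 0.22. Of these, 2 had an unadjusted limma p under 0.05, against 4.46% of all tested genes. Mbp, the myelin basic protein gene, measured 392, 420 and 451 FPKM in KO against 337, 348 and 366 FPKM in WT (0.26 ± 0.09, SE, limma unadjusted p = 0.0237, adjusted p = 1.00). Its groups did not overlap, an order shown by 4.99% of all tested genes. Median values were 0.02 for 5 neuron genes, 0.03 for 5 astrocyte genes, 0.08 for 4 microglia genes, 0.03 for 10 choroid plexus genes and 0.05 for 6 genes of meninges and vessels. None of these lists held a called gene. Outside the oligodendrocyte list, only Sostdc1 of choroid plexus had an unadjusted limma p under 0.05 among them. The largest changes with a mean of at least 1 FPKM were in Sostdc1 (0.37 ± 0.13) and Aqp1 (-0.32 ± 0.14) for choroid plexus, in Mbp and Mog (0.26 ± 0.13) for oligodendrocytes, in Aqp4 (0.11 ± 0.07) and Slc1a2 (-0.06 ± 0.07) for astrocytes, and in Syt1 (-0.08 ± 0.08) and Tubb3 (0.07 ± 0.10) for neurons (log2 fold change ± SE). For microglia they were in Csf1r (0.13 ± 0.10) and Cx3cr1 (0.11 ± 0.07), and for meninges and vessels in Col1a2 (0.33 ± 0.17) and Col1a1 (0.22 ± 0.23).

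Blood genes were lowest in WT 3 and highest in KO 5 for all 5 tested, with summed FPKM of 298, 515 and 307 in KO against 325, 410 and 179 in WT. The median log2 fold change of the 5 was 0.35, with 0.38 ± 0.38 for Hba-a1 and 0.37 ± 0.30 for Hbb-bt (SE), and none was called. Among genes of liver and testis read in brain, 4 tested liver genes had a median of 0.40, with 2.08 ± 1.71 for Alb and 0.19 ± 0.55 for Apoa2, and 3 tested testis genes a median of 0.80, with 0.80 ± 0.83 for Prm1 (SE); none was called. These are the libraries that stood apart for cerebellar and pituitary genes, and the part of blood in those values was not tested.

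In liver and testis most of the 29 genes were near 0, and the exceptions were mainly in testis. In CPM (reads scaled by the library total), used here between tissues, all 6 brain libraries lay above all liver and testis libraries for 24 of the 29 genes. No read was found in any liver library for 17 genes, and every gene had at least 1 read in testis. The 5 exceptions were Pomc and Agrp, which were higher in testis, and Gh, Prl and Cga, which were near 0 in most libraries.

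Penk was the most abundant member in testis, at a median of 110 CPM in testis and 153 CPM in brain. It measured 69.9, 59.0 and 64.1 FPKM in KO 4, KO 5 and KO 6 testis, against 58.7, 55.9 and 64.4 FPKM in WT 1, WT 2 and WT 3 testis, with overlap (log2 fold change 0.11 ± 0.10, SE, limma adjusted p = 0.871). Pde10a had a median of 75.1 CPM in testis and 236 CPM in brain. Pomc had a median of 15.6 CPM in testis and 5.19 CPM in brain, and measured 13.0, 10.4 and 8.27 FPKM in KO testis against 9.72, 10.9 and 16.2 FPKM in WT testis. Its groups overlapped, at a log2 fold change of -0.21 ± 0.23 (SE, adjusted p = 0.876).

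Of 14 members tested in testis limma called 0, and over all genes 1 of 22341 was called (0.00448%). None of the 14 had an unadjusted limma p under 0.05, against 4.13% of all genes tested in testis. Tac1 measured 1.95, 1.10 and 1.35 FPKM in KO testis against 1.00, 1.04 and 0.939 FPKM in WT testis, without overlap (0.48 ± 0.22, SE, adjusted p = 0.871). The KO and WT testis libraries did not overlap for Agrp and Pde10a either, at 0.32 ± 0.15 and 0.30 ± 0.19 (SE, adjusted p = 0.871 each). Of genes tested in testis, 7.57% showed this order, with every KO value higher than every WT value. These are tests on genotype in another tissue than the one the genes mark. Voom also called none of the 14.

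Of 5 members tested in liver, limma and voom called 0, and over all genes 3 of 14124 were called (0.0212%). Among the 5, 1 had an unadjusted limma p under 0.05, against 4.38% of all genes tested in liver. That gene was Ppp1r1b, at 1.77, 2.29 and 1.32 FPKM in KO liver against 2.32, 3.30 and 2.48 FPKM in WT liver. The lowest WT library was just above the highest KO library, an order without overlap that 4.58% of genes tested in liver showed, and the log2 fold change was -0.58 ± 0.23 (SE, unadjusted p = 0.0420, adjusted p = 1.00). In brain the same gene had a log2 fold change of -0.01 ± 0.11.

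**Figure D5:**
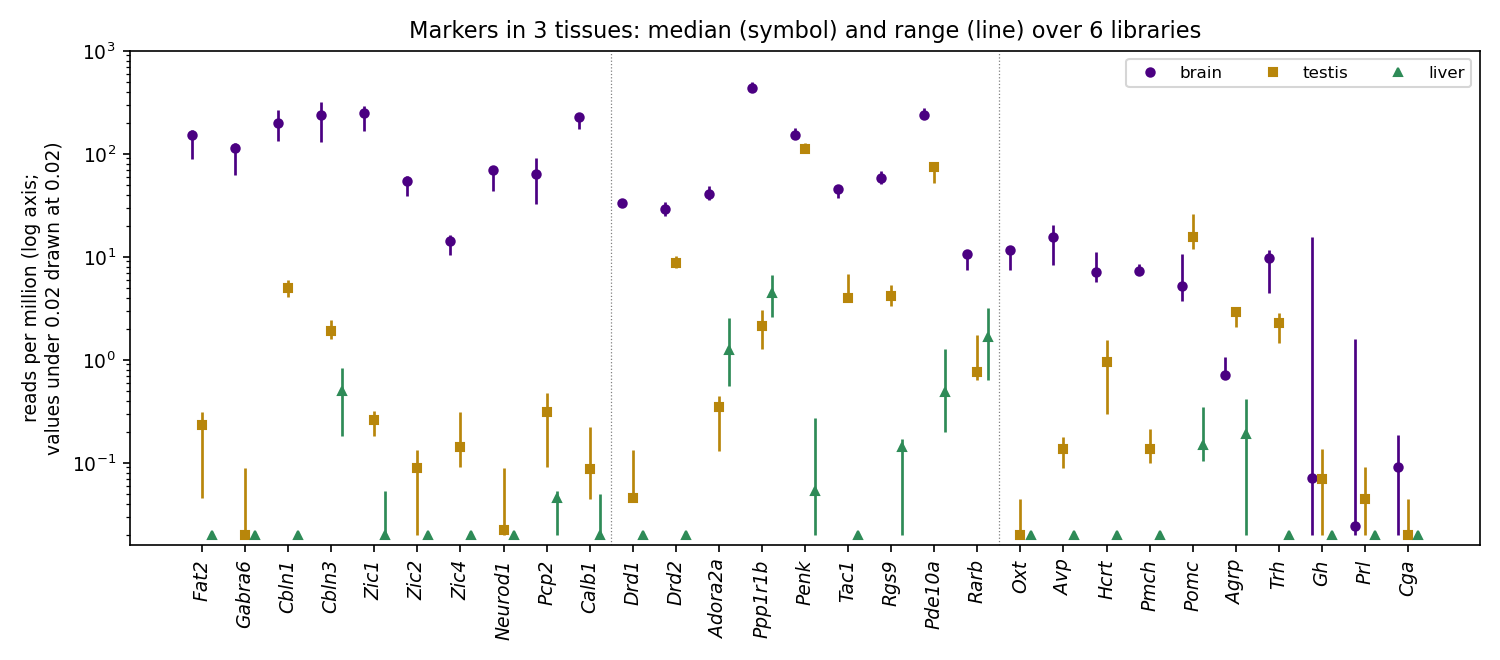
CPM (log y axis, values under 0.02 drawn at 0.02) of the 29 genes in brain, testis and liver, as median (symbol) and range (line) over the 6 libraries of both genotypes. Brain lies above the other tissues for 24 genes, Penk and Pde10a are also high in testis, and the brain lines of Gh and Prl are long because of KO 5.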

How the data were processed

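Poly-A RNA libraries from liver, brain and testis were sequenced. The tools named in the submitters' processing notes are HISAT2 2.0.5 (an aligner), featureCounts 1.5.0-p3 (a read counter) and DESeq2 1.16.1, with the mm10 build. The authors deposited FPKM for 52636 genes per library; the library kit named in the labels' protocols (NEBNext Ultra RNA) does not mark strand. FPKM times the gene length given in the files gave whole reads for 100% of values within a tolerance of 0.01 reads, so reads and depths were recovered from it. Depth was 18990130 to 23529098 reads in liver and 20098777 to 23335596 in testis.

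Each tissue was fitted with limma 3.58.1 (R 4.3.3) with a mean-variance trend on log2(FPKM + 0.1), KO minus WT, for genes that reached 10 reads in 3 or more of its libraries. P-values were adjusted by Benjamini-Hochberg over all genes tested, and a gene is called at an adjusted p under 0.05. Other pseudocounts, filters and scalings, voom, the replicate block and leaving out each library were tried as alternatives. Fold changes of low genes are understated by the pseudocount. The fit was tested on simulated data in which genes varied independently, so shifts shared by many genes of a library were not covered. Levels between tissues are CPM, reads scaled by the library total, since the deposited FPKM carry a scaling that differs between tissues. Besides the members, 18 other gene lists were used, of whose symbols 1 was not matched. The text names all 29 members, of each other list the 2 tested genes with the largest change and a mean of at least 1 FPKM, and the 5 genes most like each group of members; 1 gene that this rule selects is not reported here, and other genes were chosen after their values were seen. Members and lists were chosen with earlier results of these data known. Figures used matplotlib 3.10.9.

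The labels share no replicate number between KO and WT of a tissue. The numbers in the deposited file names do, and same-numbered libraries deviated together in liver (correlations 0.35, 0.16 and 0.30), which counts as paired, but not in brain (0.09, -0.08 and 0.25) or testis (0.08, -0.06 and 0.09). The liver SEs and p-values given above are from the fit without this pairing. With the block by these numbers, no member was called in liver.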

Additional observations from a re-analysis of the deposited data

How the results depend on the processing

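No member was called in brain, liver or testis under any alternative that was run, with lowest adjusted p values of 0.482, 0.495 and 0.640. Brain log2 fold changes kept their direction in 408 of 415 values. The number of genes called in brain, 15, was 9 with a mean of at least 1 FPKM, 25 with voom quality weights, 9 without KO 5 and WT 3 (chosen after seeing the data) and 8 to 12 without one library. In liver the 3 became 1 with a mean of at least 1 FPKM and 2 to 5 without one library. In testis the 1 became 0 with no filter, 2 with voom, 6 with quality weights and 0 to 3 without one library. The cause was not tested.

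With the replicate block by file-name numbers, the counts were 9 in brain, 2 in liver and 1 in testis, and no member's call changed. In brain, KO 4 and KO 5 correlated best with a WT library of another number.

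No member with an unadjusted p under 0.05 changed sign. In brain the sign turned for Drd1 (0.01), Drd2 (0.07) and Ppp1r1b (0.07) without WT 1, Ppp1r1b without KO 5 (0.01) or KO 6 (0.05), Agrp without KO 6 (-0.04) and Rgs9 without KO 5 and WT 3 (0.03). Over the fits without one library, Drd1 ran from -0.10 to 0.01, Drd2 from -0.18 to 0.07, Ppp1r1b from -0.11 to 0.07 and Agrp from -0.04 to 0.22. In liver Adora2a ran from -0.20 to 0.71. In testis Cbln1 ran from -0.23 to 0.05, Pcp2 from -0.03 to 0.54, Drd2 from -0.01 to 0.20, Rgs9 from -0.21 to 0.03, Rarb from -0.24 to 0.21, Hcrt from -0.72 to 0.38 and Pomc from -0.37 to 0.01, and quality weights turned Drd2 (-0.01) and Rarb (0.37). The hypothalamic and pituitary median of -0.23 was -0.02 with no filter, -0.09 without WT 1 and -0.02 without KO 5 and WT 3. The cerebellar median ran from 0.11 to 0.46 and the striatal one from -0.18 to -0.02. Gh, Prl and Cga had too few reads for a test, and with 3 libraries a group differences as small as those of the striatal genes are not resolved.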
